A study of Mus musculus with 4 samples.

Results

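The genes described here are 10 tubulin isotypes, the products from which the microtubules of a sensory neuron are built. They were chosen by symbol among the 31053 genes of the count tables, 6 of them beta tubulins (Tubb3, Tubb6, Tubb2a, Tubb2b, Tubb4a and Tubb5) and 4 of them alpha tubulins (Tuba1a, Tuba1b, Tuba1c and Tuba4a), and each was found under a single gene identifier in every library. The questions were which isotypes each class of neuron in the dorsal root ganglion (DRG) contained, how this changed after a nerve injury, and how neurons with and without Sprr1a, an injury-induced gene, differed.

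Microtubules are hollow polymers of alpha and beta tubulin heterodimers that carry transport along axons and give them their shape. Vertebrates encode several isotypes of each chain, which differ mainly in their acidic C-terminal tails, the site of most tubulin modifications and of contact with many motor and associated proteins. In peripheral neurons the synthesis of several isotypes is known to rise when an axon is cut and regrows, and tubulin is among the main cargoes of slow axonal transport.

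Single cells were taken from Pirt EGFPf mice on a C57BL/6 background, aged 7 to 8 weeks and heterozygous for an allele in which a farnesylated green fluorescent protein (GFP) replaces the coding part of Pirt, so that the Pirt promoter marks most DRG neurons and all 4 groups carried this allele. In the injured mice the sciatic nerves of both sides were loosely ligated (chronic constriction injury, CCI), the others had a sham operation, and the L4 and L5 ganglia of both sides were dissociated at day 7 and sorted for GFP. Males and females of each operation gave 1 library each (Male-Sham and Female-Sham, Male-CCI and Female-CCI), pooled from 5 mice and 20 ganglia, so the male and the female library of an operation served as its replicates (n = 2 against 2) and animals within a library cannot be separated. Mice of a litter had the same operation, so litter and operation cannot be told apart.

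The deposited tables held 4019 to 8035 cells and 195684124 to 237069156 unique molecular identifiers (UMIs, each standing for 1 captured RNA molecule) per library, and 2947 to 5548 cells per library passed the filters. Libraries shared 215 to 513 cell barcodes between any pair of them, and the tables were used as deposited. Of 29 clusters, which were formed without tubulin genes or Sprr1a, 28 were neuronal and 1 was SGC-like (satellite glial cells, 581 cells). Neurons numbered 3281 and 5398 in the male and female sham libraries and 2817 and 3638 in those of CCI. A neuron was counted as Sprr1a+ when its log-normalised Sprr1a value was above 1, which held for 1.28% and 2.67% of neurons in the sham libraries and for 52.1% and 49.2% in the CCI libraries, matching their labels. Clusters were named after neuron classes from marker lists, and the suffix "-like" marks that these names are rebuilt: NP (non-peptidergic nociceptors), PEP (peptidergic nociceptors), NF (neurofilament-rich mechanoreceptors), cLTMR (low-threshold mechanoreceptors with C-fibres) and CCI-ind (clusters found mostly after CCI). Levels are given in CPM, the UMIs of a gene per 1000000 UMIs, both summed over all cells of a set in a library. The 3′ chemistry counts molecules and not fragments, so levels of different isotypes were compared without dividing by transcript length. In such sums, fewer cells of a class and less RNA per cell cannot be told apart. Where 4 values stand together, the sham libraries come before those of CCI and, within an operation, the male before the female library.

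The positions of the genes other than Tubb6 are given because several isotypes are close relatives and lie side by side. On mouse genome build GRCm38, Tubb3 lies on chromosome 8 (chr8:123411424-123422015, plus strand), and Tubb2a and Tubb2b are neighbours on the minus strand of chromosome 13 (chr13:34074274-34078007 and chr13:34126748-34130466). Tubb4a and Tubb5 lie apart from each other on chromosome 17 (chr17:57080066-57087782 and chr17:35833921-35838306, both minus strand). Tuba1b (chr15:98931425-98934565, minus strand), Tuba1a (chr15:98949837-98953703, minus strand) and Tuba1c (chr15:99029891-99038110, plus strand) form a group on chromosome 15, and Tuba4a lies on chromosome 1 (chr1:75214228-75219865, minus strand). The coding sequences of Tubb2a and Tubb2b were 96.5% identical, those of Tuba1a and Tuba1b 98.3%, those of Tuba1a and Tuba1c 97.1%, and those of Tuba1b and Tuba1c 97.9%. All other pairs within a chain were between 80.2% and 86.1% identical. Reads of this kit come from the 3′ end, where the isotypes differ: of all 91-base windows in the last 250 bases of the transcripts, those shared with another gene made up 10% for Tuba1c and 0% for the other 9 members. In the last 500 bases the share was 25.1% for Tubb2a, 52.0% for Tuba1a, 60.0% for Tuba1b and 64.9% for Tuba1c, so counts of these 4 genes are less certain than those of the others.

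The sequence in front of 5 genes is shown because 4 of them were higher in neurons after CCI and the remaining one, Tuba4a, was lower in Sprr1a+ neurons. RefSeq (GRCm38.p6) promoter entries were used for 8 of the 10 members, without Tubb6 and Tubb2b. The 250 bases before the start that RefSeq gives each gene are written 5′ to 3′ on the strand of the gene, in lower case, with capitals marking 5 motifs searched on both strands: the AP-1 site TGANTCA, the cyclic AMP response element TGACGTCA, the TATA box TATAAA, the CCAAT box CCAAT and the GC box GGGCGG. They cover chr8:123411303-123411552 (Tubb3), chr13:34078009-34078258 (Tubb2a), chr15:98953502-98953751 (Tuba1a), chr15:99029641-99029890 (Tuba1c) and chr1:75219295-75219544 (Tuba4a). The gene spans given above come from another annotation (GENCODE), which starts some genes further upstream, so the Tuba4a window lies wholly, and the Tuba1a and Tubb3 windows partly, inside those spans.
Tubb3: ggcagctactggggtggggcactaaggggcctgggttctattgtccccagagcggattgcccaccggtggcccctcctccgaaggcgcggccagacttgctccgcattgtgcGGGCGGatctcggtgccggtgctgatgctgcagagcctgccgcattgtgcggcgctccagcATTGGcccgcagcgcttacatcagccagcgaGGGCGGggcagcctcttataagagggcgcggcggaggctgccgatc
Tubb2a: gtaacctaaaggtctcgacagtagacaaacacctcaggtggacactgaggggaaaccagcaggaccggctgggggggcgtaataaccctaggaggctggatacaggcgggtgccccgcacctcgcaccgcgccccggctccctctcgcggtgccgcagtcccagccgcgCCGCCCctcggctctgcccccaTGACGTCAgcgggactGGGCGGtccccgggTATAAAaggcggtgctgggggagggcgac
Tuba1a: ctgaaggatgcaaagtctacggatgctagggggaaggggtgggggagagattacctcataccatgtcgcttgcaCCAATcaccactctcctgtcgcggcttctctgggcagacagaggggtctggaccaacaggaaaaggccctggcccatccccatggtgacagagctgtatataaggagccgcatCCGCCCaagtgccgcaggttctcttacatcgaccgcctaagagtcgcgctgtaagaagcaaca
Tuba1c: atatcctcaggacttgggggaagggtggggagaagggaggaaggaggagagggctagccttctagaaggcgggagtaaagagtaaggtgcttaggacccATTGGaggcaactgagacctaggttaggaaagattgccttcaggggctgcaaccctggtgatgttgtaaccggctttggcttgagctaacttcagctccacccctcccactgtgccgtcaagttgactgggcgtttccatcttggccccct
Tuba4a: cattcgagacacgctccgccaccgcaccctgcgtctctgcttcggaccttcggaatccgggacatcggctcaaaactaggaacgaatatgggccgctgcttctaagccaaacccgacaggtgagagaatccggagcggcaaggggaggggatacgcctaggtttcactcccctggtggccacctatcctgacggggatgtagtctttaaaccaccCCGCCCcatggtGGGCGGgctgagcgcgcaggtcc
The GC box was in 5 of the 8 promoters (Tubb3, Tubb2a, Tuba1a, Tuba1b and Tuba4a) and in 32.7% of all 32851 promoter windows of the same length. The CCAAT box was in 4 (Tubb3, Tubb5, Tuba1a and Tuba1c), against 33.8% of all windows. The cyclic AMP response element and the TATA box were each found once, both in front of Tubb2a, against 1.55% and 12.4% of all windows. The AP-1 letters, present in 6.75% of all windows, were in none of the 8, which says only that these letters are not in this stretch. A match of letters is a description and does not show that a factor binds there.

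In sham neurons the 10 isotypes together made up 1.08% (Male-Sham) and 1.10% (Female-Sham) of all UMIs. Most of this came from 3 genes: Tuba1a, the main alpha isotype of developing and adult neurons, took 32.7% of the tubulin UMIs on average, Tubb3, the beta isotype used as a pan-neuronal marker, took 23.1% ± 0.53 (SD, n = 2), and Tubb5, a widely expressed beta isotype, took 18.3%. Tubb2b and Tubb2a, beta isotypes enriched in the nervous system, took 9.17% ± 0.14 and 8.21%, the widely expressed Tuba1b took 5.04%, the brain-enriched Tubb4a took 2.37% and Tuba4a, an alpha isotype encoded without the C-terminal tyrosine, took 1.04%. Tuba1c and Tubb6 were rare, at 0.0661% and 0.0381%. Beta isotypes gave 60.7% and 61.6% of the tubulin UMIs in the 2 libraries. SGC-like cells, in which 7 satellite glial markers summed to 100992 to 129354 CPM against 878.5 to 1642 CPM in neurons, held less tubulin, at 0.257% to 0.300% of their UMIs over the 4 libraries.

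The make-up differed between classes of sham neurons. These differences are given as a description without a test, since the classes were formed from the same cells, and only Sprr1a- neurons were used. Tuba1a was the most abundant isotype in 8 of 10 classes, and Tubb3 led in NF1-like and NF2-like neurons. Among the beta isotypes Tubb3 was first in 8 of 10 classes, and Tubb5 was first in NP2-like and cLTMR-like neurons. NF1-like and NF2-like neurons also had the smallest total, 0.795% ± 0.0189 and 0.874% ± 0.0458 of UMIs, against 1.22% ± 0.0216 in PEP3/4-like neurons, the class with the highest total (n = 2 for each).

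**Figure D1:**
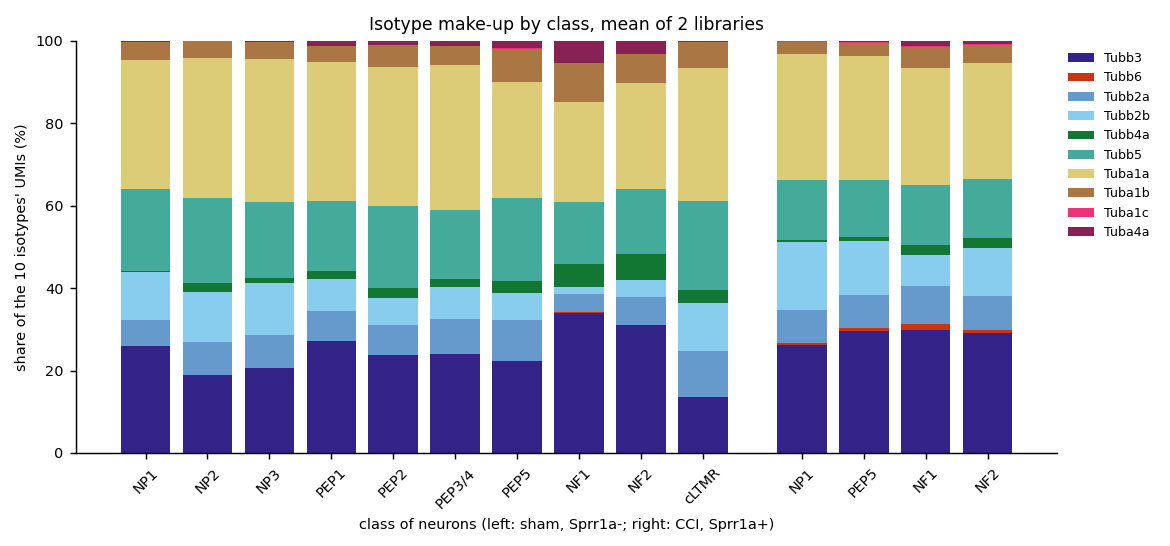
Each bar is split into the share (%) of the UMIs of the 10 isotypes that each isotype took, as the mean of 2 libraries. The 10 bars on the left show the classes of Sprr1a- neurons in the sham libraries. Those on the right show Sprr1a+ neurons of CCI in the NP1-like, PEP5-like, NF1-like and NF2-like classes. Tuba1a is the largest part of 8 of the 10 sham bars. In these the Tubb3 share runs from 13.5% in cLTMR-like to 34.0% in NF1-like neurons.

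Tubb3 was highest in PEP1-like neurons at 3156 ± 16.4 CPM and lowest in cLTMR-like neurons at 1451 ± 84.1 CPM (mean ± SD of 2 sham libraries), a 2.18-fold range. PEP1-like neurons stood above all other classes in both libraries, whereas PEP3/4-like, NP1-like, NF2-like, NF1-like and PEP2-like neurons, which followed with means of 2691 to 2945 CPM, overlapped with their neighbours in that order. As a share of tubulin the order changed: Tubb3 took 34.0% ± 1.21 in NF1-like neurons, 31.0% ± 0.392 in those of the NF2-like class and 13.5% ± 0.0271 in cLTMR-like neurons.

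Tubb5 and Tuba1a, the other abundant isotypes, also varied little. Tubb5 was highest in cLTMR-like neurons at 2313 ± 44.4 CPM and lowest in NF1-like neurons at 1204 ± 0.0705 CPM, a 1.92-fold range in which 5 of 9 neighbouring classes overlapped. Tuba1a ran from 4309.8 ± 176 CPM in PEP3/4-like to 1928 ± 118 CPM in NF1-like neurons, 2.24-fold, with 4 of 9 neighbours overlapping. Tuba1b had the narrowest range of all, 1.83-fold, and unlike Tuba1a its level was highest in NF1-like neurons, at 744 ± 86.3 CPM, although these overlapped with PEP5-like neurons at 735 ± 23.0 CPM.

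Tubb2a and Tubb2b, the most similar pair of beta isotypes, were both lowest in the NF classes. Tubb2a was highest in cLTMR-like neurons at 1205 ± 158 CPM and lowest in NF1-like neurons at 339 ± 13.5 CPM, a 3.56-fold range. Tubb2b had a wider range of 10.1-fold, from 1322 ± 253 CPM in NP1-like to 131 ± 3.49 CPM in NF1-like neurons. NP1-like, NP3-like and cLTMR-like neurons overlapped at the top of the Tubb2b order, and below them the 7 remaining classes followed one another without overlap.

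Tubb4a and Tuba4a had their highest levels in the NF classes. Tubb4a was highest in NF2-like neurons at 545 ± 30.6 CPM, followed by NF1-like neurons at 444 ± 10.6 CPM and cLTMR-like neurons at 322 ± 4.07 CPM, and it was 21.8-fold lower in NP1-like neurons, with 20.0 and 30.1 CPM in the 2 sham libraries. Tuba4a was highest in NF1-like neurons, with 447 and 421 CPM in the 2 sham libraries, followed by NF2-like neurons at 279 ± 1.53 CPM, and reached 2.90 ± 0.102 CPM in NP2-like neurons, the Mrgprd-type nociceptors, a 149-fold range. For each of these genes 1 of 9 neighbouring pairs overlapped.

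Tubb6 and Tuba1c were rare in every class of sham neurons. Tubb6 stood at 20.9 ± 1.28 CPM in NF1-like neurons and at 2.63 CPM or less in each of the other 9 classes, down to 0.134 ± 0.0995 CPM in NP2-like neurons. The second place of NP1-like neurons rested on Female-Sham, with 5.01 CPM against 0.259 CPM in Male-Sham; 8 of 71 of these Female-Sham cells and 1 of 83 Male-Sham cells lay in the cluster that held most Sprr1a+ NP1-like neurons of CCI, and the part of these cells in the level was not tested. Tuba1c was highest in PEP5-like neurons, the Trpm8-type cold-sensing class, at 18.8 ± 2.86 CPM and lowest in NF1-like neurons at 0.736 ± 0.0569 CPM.

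After CCI the neurons contained more tubulin RNA. The 10 isotypes made up 1.75% (Male-CCI) and 1.70% (Female-CCI) of neuronal UMIs against 1.08% and 1.10% in sham, means of 1.73% ± 0.0351 and 1.09% ± 0.0113. Summed counts of the 4 libraries were compared with edgeR's quasi-likelihood test over 17233 genes, and a gene was called when the Benjamini-Hochberg adjusted p was below 0.05 and the log2 fold change was above 0.5 in size. Of the 10 members 6 were called higher (Tubb3, Tubb6, Tubb2a, Tubb2b, Tuba1a and Tuba1c) and 0 lower, where 15.2% of all genes tested were called higher and 12.7% lower. The median log2 fold change was 0.68 for the members and -0.01 for all genes. The 7 satellite glial markers summed to 1322, 1642, 878.5 and 1081 CPM in these neurons, and 4 Schwann cell markers to 405, 427, 439 and 464 CPM. CCI-ind-like cells made up 40, 133, 1004 and 1215 of the 3281, 5398, 2817 and 3638 neurons. The part of these markers and of the class mix in the result was not tested.

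Tubb3 stood at 2451, 2569.7, 4688 and 4323 CPM, 0.90 higher on the log2 scale after CCI (SE 0.057, adjusted p = 4.57e-05). Tubb6, a minor beta isotype known as a regeneration-associated gene, stood at 3.82, 4.48, 71.3 and 61.1 CPM, the largest change among the members at 4.05 (SE 0.12, adjusted p = 1.36e-05). In both genes each CCI library was far above each sham library. Tubb2b stood at 980.3, 1016, 2274 and 2327 CPM (log2 fold change 1.26, SE 0.046, adjusted p = 8.26e-06), and Tubb2a at 905, 882, 1410.4 and 1368 CPM (0.69, SE 0.045, adjusted p = 4.88e-05). The more abundant Tubb5, at 1964, 2027, 2609 and 2646 CPM, had an adjusted p of 2.35e-04 but a log2 fold change of 0.45, below the threshold of size. Tubb4a, at 256, 259, 261 and 225 CPM, had overlapping groups (-0.03, SE 0.078, adjusted p = 0.785).

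Among the alpha isotypes Tuba1a stood at 3556, 3561, 5452 and 5415 CPM (log2 fold change 0.67, SE 0.039, adjusted p = 3.46e-05). Tuba1c stood at 6.86, 7.53, 30.4 and 26.0 CPM (2.02, SE 0.097, adjusted p = 1.86e-05). For Tuba1a and Tuba1c the groups did not overlap, and the less abundant isotype had the larger change. Tuba1b, at 569, 528, 615 and 533 CPM, was not called (0.12, SE 0.078, adjusted p = 0.225), and its groups overlapped. Tuba4a, at 116, 111, 93.4 and 82.8 CPM, lay lower in both CCI libraries (-0.31, SE 0.068, adjusted p = 0.0085) but did not reach the threshold of size.

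**Figure D2:**
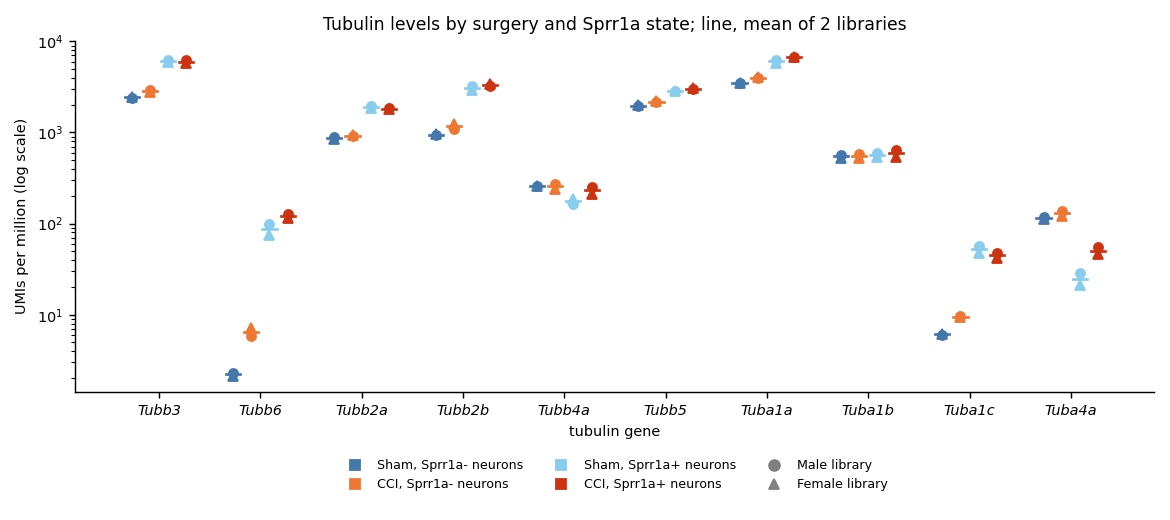
Level of each isotype (CPM, log axis) in Sprr1a- and Sprr1a+ neurons of sham and of CCI, 1 point per library. Tubb6 stands at 2.32 and 2.15 CPM in Sprr1a- neurons of sham and at 5.83 and 7.20 CPM in those of CCI. In Sprr1a+ neurons of CCI it stands at 127 and 114 CPM.

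As shares of the tubulin UMIs, Tubb2b went from 9.17% ± 0.14 to 13.3% ± 0.49 and Tubb3 from 23.1% ± 0.53 to 26.1% ± 0.96, and Tubb6 from 0.0381% to 0.383%. Tuba1a and Tubb2a, although called higher in level, kept similar shares, with means of 32.7% in sham and 31.5% in CCI for Tuba1a and of 8.21% and 8.05% for Tubb2a. The share of Tubb5 went from 18.3% to 15.2%, that of Tuba1b from 5.04% to 3.32%, that of Tubb4a from 2.37% to 1.41% and that of Tuba4a from 1.04% to 0.510%. Beta isotypes gave 64.6% and 64.4% of tubulin UMIs in the CCI libraries against 60.7% and 61.6% in sham. With 2 libraries against 2 an exact permutation test of a share cannot go below p = 0.33, so shares are given without a test.

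The male and the female library of an operation gave changes of the same sign for 9 of the 10 members, Tubb4a being the exception (0.03 in males and -0.20 in females). The log2 change was higher in males for 10 of 10, which for Tuba4a means less negative. The widest gap between the sexes was in Tubb6, by 0.41 on a log2 scale of CPM plus 1. With 1 library for each sex and operation these differences were not tested.

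Sprr1a+ neurons of the CCI libraries were then compared with Sprr1a- neurons of the same libraries, with the library as a block, over 16242 genes. This fit had 1 residual degree of freedom. Of the 10 members 7 were called higher (Tubb3, Tubb6, Tubb2a, Tubb2b, Tubb5, Tuba1a and Tuba1c) and 1 lower (Tuba4a), against 20.9% and 24.7% of all genes. The median log2 difference was 1.04 for the members and -0.00092 for all genes. Total tubulin was 2.22% and 2.18% of UMIs in the Sprr1a+ neurons against a mean of 1.21% ± 0.00965 in the Sprr1a- neurons. Scaling by library totals, in place of the trimmed mean of M-values, moved the median of all genes by -0.17 and the share of called genes that were higher from 45.8% to 34.0%; under it Tubb5 went from 0.65 to 0.48 and was no longer called, and the other 7 calls remained.

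Tubb3 stood at 6192 and 5823 CPM in the Sprr1a+ neurons of Male-CCI and Female-CCI and at 2913 and 2798 CPM in their Sprr1a- neurons, a log2 difference of 1.25. Tubb6 stood at 127 and 114 CPM against 5.83 and 7.20 CPM (4.38), Tubb2b at 3269 and 3389.7 CPM against 1099.7 and 1245 CPM (1.68), and Tubb2a at 1835 and 1790.3 CPM against 909.5 and 939 CPM (1.15). Tubb5 stood at 3012 and 3055 CPM against 2135 and 2229.5 CPM (0.65). These 5 beta isotypes were higher in the Sprr1a+ neurons of both libraries, with no overlap between states. Tubb4a, at 252 and 209.9 CPM against 272 and 240.1 CPM, was not called (0.02), and its sign turned to -0.15 under library totals.

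Tuba1a stood at 6743 and 6789 CPM in Sprr1a+ neurons against 3929 and 4017 CPM in Sprr1a- neurons (0.94), and Tuba1c at 48.0 and 42.4 CPM against 9.60 and 9.33 CPM (2.43). Tuba4a had the opposite direction, at 54.8 and 46.6 CPM against 139 and 119.8 CPM (-1.18). Tuba1b stood at 647 and 545 CPM against 578 and 521 CPM, a difference of 0.29 that was not called for its size (edgeR adjusted p = 1.88e-05). Sprr1a+ neurons had a higher median of UMIs per cell than Sprr1a- neurons, 60287 against 51202.5 in Male-CCI and 45672 against 40010 in Female-CCI. Their summed level of 7 satellite glial markers was lower, at 668 and 973 CPM against 1127 and 1191 CPM, and none of the 7 markers was at 0. The states also differed in their mix of classes. In Male-CCI and Female-CCI, CCI-ind-like cells made up 976 of 1467 and 1168 of 1790 Sprr1a+ neurons. Among Sprr1a- neurons they made up 28 of 1350 and 47 of 1848. The part of depth, of glial RNA and of the class mix in these differences was not tested.

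The few Sprr1a+ neurons of the sham libraries numbered 42 in Male-Sham and 144 in Female-Sham. In the isotypes given here their levels were nearer to those of CCI Sprr1a+ neurons than to those of Sprr1a- neurons. Tubb3 stood at 6279.9 and 5904 CPM in them, Tubb6 at 98.7 and 75.5 CPM, Tubb2b at 3206 and 2891 CPM, Tuba1a at 6256 and 5801 CPM and Tuba1c at 57.5 and 48.0 CPM. Tuba4a was at 28.6 and 21.3 CPM, and total tubulin was 2.15% and 2.01% of UMIs. For Tubb6, Tubb2b, Tuba1a, Tuba4a and total tubulin, both sham libraries lay below the Sprr1a+ neurons of both CCI libraries. The sham Sprr1a+ neurons were not compared by a test.

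Levels were also followed over bins of the Sprr1a value. Tubb3 stood at 2393, 2459, 2718 and 2550 CPM in neurons with 0 Sprr1a UMIs and at 2323, 2489, 2980 and 2902 CPM in those with a value above 0 and up to 1. In neurons with a value above 1 and up to 2 it was already at 6705 CPM in Female-Sham, 5832 CPM in Male-CCI and 5842 CPM in Female-CCI, and above 3 it was at 6111, 5404, 6243 and 5738 CPM. Male-Sham had fewer than 10 neurons in the bin above 1 and up to 2 and is not given for it. Levels of Tubb3 in the 3 bins above 1 thus stayed within a narrow range.

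Tubb6 was likewise higher above a value of 1 than below it, and it differed further between the positive bins. It stood at 2.26, 2.02, 3.65 and 4.03 CPM at 0 Sprr1a UMIs and at 3.97, 4.57, 6.58 and 8.54 CPM up to a value of 1. In the next bin it was at 44.2 CPM in Female-Sham, 97.6 CPM in Male-CCI and 71.6 CPM in Female-CCI, and above a value of 3 at 109, 81.2, 134 and 125 CPM. Of the alpha isotypes, Tuba1a stood at 3522, 3486, 3836 and 3828 CPM at 0 UMIs and at 6240.1, 5273, 6793 and 6685 CPM above 3, and Tuba1c at 6.12, 6.19, 9.29 and 7.77 CPM and at 60.9, 42.6, 49.6 and 44.5 CPM. Tuba1b stayed in a narrow range, at 570, 528, 578 and 510 CPM at 0 UMIs and 583, 486, 642 and 535 CPM above 3, and Tubb4a stood at 256, 261, 268 and 229 CPM and at 179, 189, 253 and 214 CPM. Tuba4a went down, from 117, 114, 131 and 119.8 CPM at 0 UMIs to 29.2, 19.7, 52.3 and 45.7 CPM above 3.

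**Figure D3:**
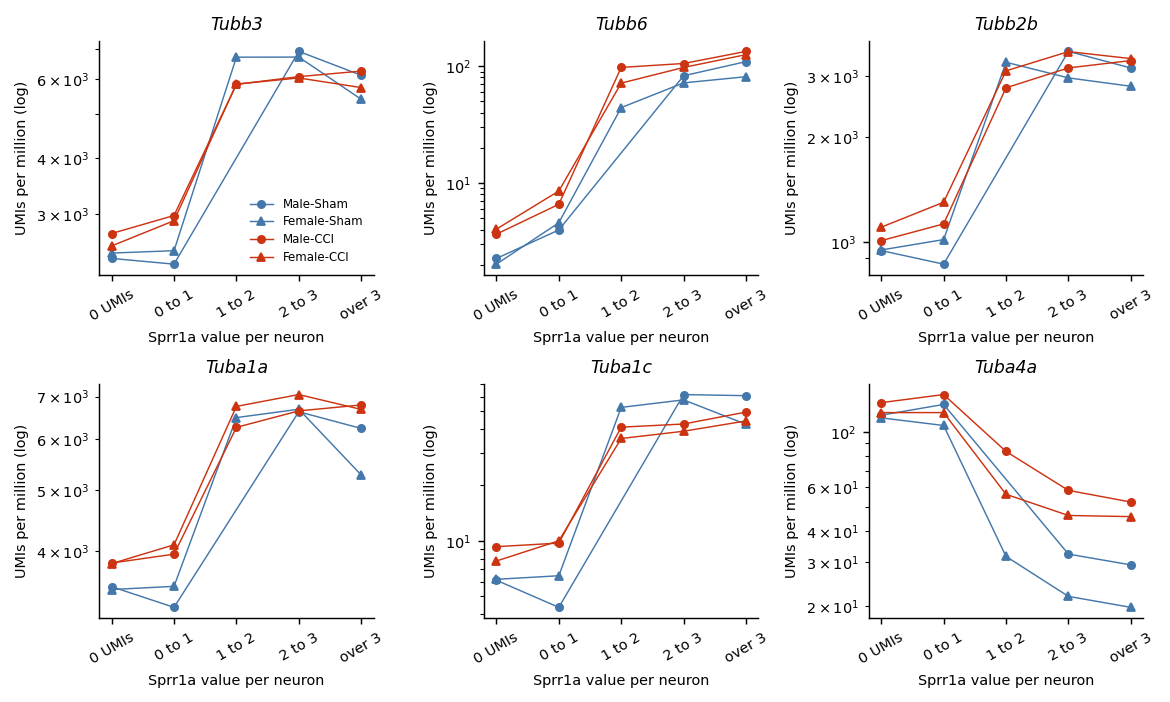
Level of Tubb3, Tubb6, Tubb2b, Tuba1a, Tuba1c and Tuba4a (CPM, log axis) in neurons grouped by their log-normalised Sprr1a value, 1 line per library. Tubb3 steps from 2323 to 2980 CPM in the bin up to 1 to 5832 to 6705 CPM in the next bin, and Tuba4a goes down from 117, 114, 131 and 119.8 CPM in the first bin to 29.2, 19.7, 52.3 and 45.7 CPM in the last.

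In Sprr1a- neurons, CCI against sham changed little in the tubulins. Of the 10 members 2 were called higher (Tubb6 and Tuba1c) and 0 lower, where 3.24% and 1.24% of 16407 genes were called in these directions. Tubb6 stood at 2.32, 2.15, 5.83 and 7.20 CPM (log2 fold change 1.52, SE 0.13, edgeR adjusted p = 0.00326), and Tuba1c at 6.06, 6.20, 9.60 and 9.33 CPM (0.60, SE 0.065, adjusted p = 0.00486). Both were higher in each CCI library, but at a small part of their level in Sprr1a+ neurons. When only neurons with 0 Sprr1a UMIs were taken, Tuba1c fell to 0.40 and was no longer called. Tubb3, Tubb2b and Tuba1a had adjusted p-values below 0.05 with changes of 0.21, 0.28 and 0.16, under the threshold of size. Total tubulin in Sprr1a- neurons was 1.06% and 1.07% of UMIs in sham and 1.21% ± 0.00965 in CCI.

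Injured neurons that kept the markers of a class were examined in NP1-like, PEP5-like, NF1-like and NF2-like neurons, with the Sprr1a+ neurons of the CCI libraries set against the Sprr1a- neurons of the sham libraries. Of 40 pairs of a member and a class, 30 were called higher and 2 lower. Tubb3, Tubb6, Tubb2a, Tubb2b, Tubb5, Tuba1a and Tuba1c were higher in all 4 classes. Tubb4a and Tuba1b were called higher in NP1-like neurons only, and Tuba4a was called lower in NF1-like and NF2-like neurons only. In PEP5-like neurons Tuba4a also lay lower in both CCI libraries, with a fitted change under the threshold of size. Differences between classes were not tested, and the fits by class were not repeated with scaling by library totals. Without Female-CCI, Tuba1b was called higher in NF1-like (0.59) and NF2-like (0.66) neurons too, and without Male-Sham in NF1-like neurons (0.51). The share of all genes called higher in these 4 classes was, in the order just given, 20.8%, 22.3%, 21.7% and 19.2%, and the share called lower was 20.3%, 24.0%, 23.8% and 20.6%. These comparisons join the change between operations and the split by Sprr1a, and the sham Sprr1a- neurons of a class serve also in the comparison of its Sprr1a- neurons.

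In NP1-like neurons, the Nppb-type nociceptors, 9 of 10 members were called higher. Tubb4a stood at 20.0 and 30.1 CPM in sham Sprr1a- neurons and at 152 and 133 CPM in CCI Sprr1a+ neurons (log2 fold change 2.60, SE 0.14, adjusted p = 1.34e-14), still the lowest of the 4 classes. Tuba1b stood at 461 and 477 CPM against 831 and 745 CPM (0.81, SE 0.091). Tubb3 stood at 2673 and 3130.0 CPM against 7179.9 and 6922 CPM (1.34), and Tuba1a at 3297 and 3708 CPM against 8296 and 8175 CPM (1.29), so that the abundant isotypes were also far apart between states. Tuba4a, at 42.3 and 37.6 CPM against 44.4 and 44.4 CPM, was not called (0.20, adjusted p = 0.188). The 2 states sat in different clusters of this class: 97 and 104 of the CCI Sprr1a+ cells were in 1 cluster, and 82 and 63 of the sham Sprr1a- cells in the other. A list of 4 Schwann cell markers summed to 138 and 211 CPM in the sham Sprr1a- cells and to 569.6 and 613 CPM in the CCI Sprr1a+ cells, with 1 or 0 of the 4 at 0 in a library, and its part in these differences was not tested. The Tubb6 call (0.259 and 5.01 CPM against a mean of 131 CPM, 5.89) was lost without either CCI library, with adjusted p = 0.11 without Male-CCI and 0.15 without Female-CCI, and the Tuba1c call (3.11) was lost without Female-CCI (0.0731) and with an Sprr1a limit of 2 (0.0704).

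In PEP5-like neurons 7 members were called higher. Tubb6 rose most, from 1.25 and 1.53 CPM to 179 and 159 CPM (7.19, SE 0.14, adjusted p = 2.05e-25), and Tubb3 rose from 1980.0 and 2086 CPM to 7754 and 6757 CPM (2.13, SE 0.072). Tubb2b went from 636 and 572 CPM to 3236 and 3109 CPM (2.69), and Tuba1a from 2585 and 2547 CPM to 7793 and 6979 CPM (1.82). In each of these genes the groups were well separated. Tubb2a went from 913 and 889 CPM to 2075 and 1853 CPM (1.42), Tubb5 from 1805 and 1865 CPM to 3341 and 3302 CPM (1.15) and Tuba1c, which had its highest sham level here, from 20.8 and 16.8 CPM to 66.1 and 55.1 CPM (2.00). Tubb4a (0.36), Tuba1b (0.31) and Tuba4a (-0.34) had adjusted p-values below 0.05 but sizes under the threshold. Of these, Tuba4a went from 155 and 161 CPM to 109 and 93.9 CPM, without overlap. The 7 satellite glial markers summed to 3769 and 4279.8 CPM in the sham Sprr1a- cells of this class and to 1301 and 1755 CPM in its CCI Sprr1a+ cells, with none of the 7 at 0, and their part in these differences was not tested.

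In NF1-like neurons, in which Tubb2b had been lowest, it went from 128 and 133 CPM to 1188 and 1041 CPM (3.42, SE 0.097, adjusted p = 1.04e-11), and Tubb2a from 348 and 329 CPM to 1326 and 1388 CPM (2.32). Tuba1c went from 0.696 and 0.776 CPM, a sum of 17 UMIs, to 17.1 and 12.3 CPM (4.69). Tubb6, which had also been highest here among sham neurons, went from 20.0 and 21.8 CPM to 223 and 189.8 CPM (3.65). Every one of these isotypes was separated between states. Tuba4a, which had been highest in this class, went from 447 and 421 CPM to 177 and 209 CPM (-0.86, SE 0.09, adjusted p = 2.73e-06). Tubb4a stood at 437 and 452 CPM against 369 and 336 CPM; its fitted change was -0.00 (adjusted p = 0.981), and its sign depended on the fit. In NF2-like neurons 7 members were called higher, with Tubb6 at 2.56 and 1.54 CPM against 129 and 109 CPM (6.07) and Tubb2b at 322 and 382 CPM against 1957 and 1592 CPM (2.58), with Tubb3 at 2591 and 2840.4 CPM against 4959 and 3958 CPM (0.96), and Tuba4a was lower at 277 and 279.7 CPM against 141 and 131 CPM (-0.79, SE 0.11, adjusted p = 2.36e-04).

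**Figure D4:**
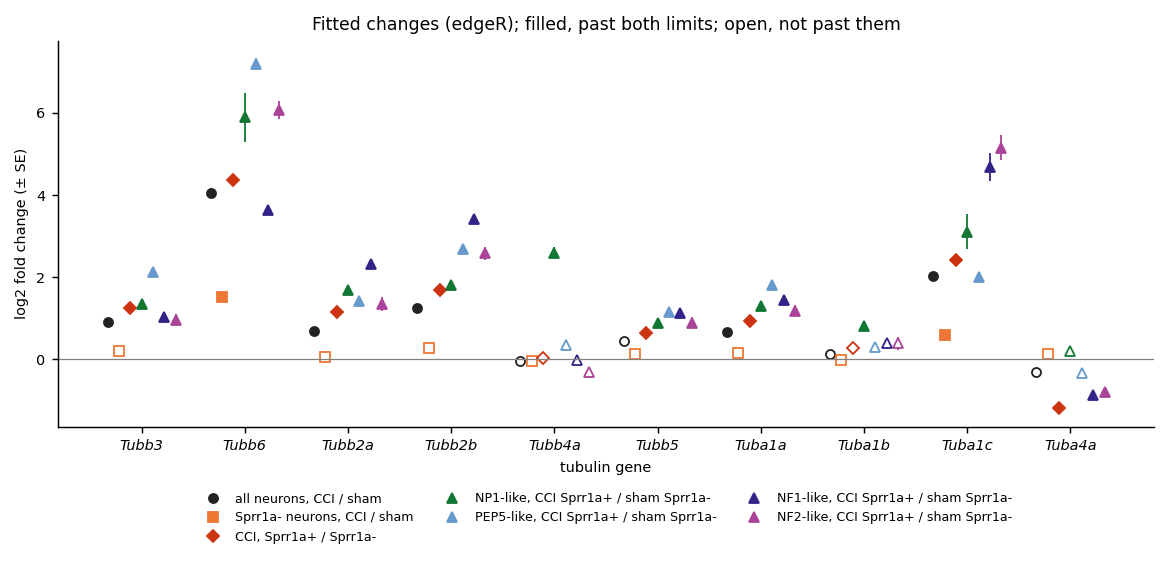
Log2 fold change of each isotype with its SE in each comparison: all neurons, Sprr1a- neurons, Sprr1a+ against Sprr1a- neurons of CCI, and the 4 classes with Sprr1a+ neurons. Tubb6 has the largest change in all neurons at 4.05, and Tuba4a lies at -1.18 between Sprr1a+ and Sprr1a- neurons.

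The levels of several isotypes lay closer together across these 4 classes in injured neurons. The highest class mean over the lowest went from 21.8-fold in sham Sprr1a- neurons to 2.58-fold in CCI Sprr1a+ neurons for Tubb4a, from 15.1-fold to 1.74-fold for Tubb6, from 25.6-fold to 4.12-fold for Tuba1c, from 10.1-fold to 3.99-fold for Tubb2b and from 10.9-fold to 4.34-fold for Tuba4a. The abundant isotypes had a narrow range in both states: 1.43-fold and 1.65-fold for Tubb3, 1.84-fold and 1.85-fold for Tubb5 and 1.82-fold and 1.97-fold for Tuba1a. Tubb2a went from 2.66-fold to 1.70-fold and Tuba1b from 1.59-fold to 1.18-fold. Total tubulin of the Sprr1a+ neurons reached 2.70% ± 0.00874 in the NP1-like and 2.44% ± 0.171 in the PEP5-like class, against 1.53% ± 0.234 in NF2-like and 1.47% ± 0.0586 in NF1-like neurons, so the NF classes remained below the nociceptor classes in these libraries.

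**Figure D5:**
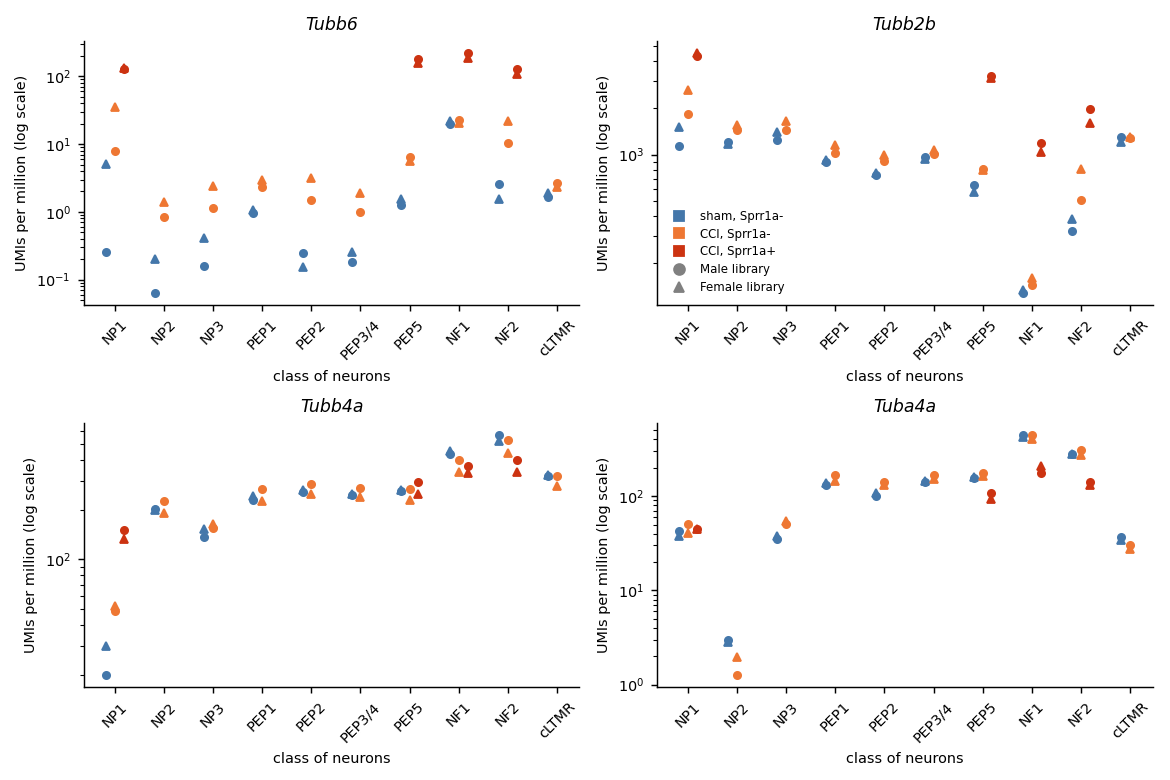
Level of Tubb6, Tubb2b, Tubb4a and Tuba4a (CPM, log axis) by class, 1 point per library. Points are for Sprr1a- neurons of sham and CCI, and for Sprr1a+ neurons of CCI where at least 10 cells per library allowed it. Tubb6 in PEP5-like neurons stands at 1.25 and 1.53 CPM in sham Sprr1a- neurons and at 179 and 159 CPM in CCI Sprr1a+ neurons.

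Among Sprr1a- neurons of each class, 98 pairs of a member and a class could be tested for CCI against sham, of which 14 were called higher and 1 lower. Tubb6 was called higher in 6 classes: PEP2-like (3.54), NF2-like (3.02), NP2-like (2.99), PEP3/4-like (2.71), PEP5-like (2.07) and PEP1-like (1.39), where 2.64%, 1.32%, 2.61%, 2.14%, 2.24% and 2.7% of all genes were called higher. The share of all genes called lower in these classes was 1.92%, 0.621%, 1.88%, 1.34%, 1.46% and 2.58%, and 0 members were called lower in 5 of them. These changes started from very low levels, such as 0.244 and 0.152 CPM to 1.51 and 3.13 CPM in PEP2-like neurons, from sums of 4 and 29 UMIs, and 1.25 and 1.53 CPM to 6.56 and 5.58 CPM in PEP5-like neurons. The PEP2-like pair lost its call in none of the alternatives in which it was tested, and the other 5 were each lost under 1. NP2-like (2.61) and PEP3/4-like (2.14) were lost without Female-CCI, and PEP1-like with 0 Sprr1a UMIs (edgeR adjusted p = 0.138). Without integration of the libraries, PEP5-like and NF2-like were lost (edgeR adjusted p = 0.367 and 0.0801). A pair whose gene was too low to enter a fit was not counted as lost. With 0 Sprr1a UMIs NF2-like neurons were not fitted, and only 3 pairs of all members were called higher. Tuba1c was called higher in the PEP2-like (0.67), PEP3/4-like (0.67) and PEP1-like (0.62) classes by edgeR. DESeq2 called none of these 3, with adjusted p-values of 0.386, 0.0554 and 0.0755. All 3 calls were lost with only neurons of 0 Sprr1a UMIs (0.26, 0.47 and 0.14), the PEP2-like one without any of the 4 libraries (adjusted p = 0.0639 to 0.269), the PEP3/4-like one without Male-Sham (0.0657) or Male-CCI (0.149), and the PEP1-like one without Female-Sham (0.0665). In NP1-like neurons, with 2.33% of genes called higher and 1.64% lower, Tubb3 (0.54), Tubb2a (0.72), Tubb4a (1.02) and Tuba1a (0.54) were called. Of these Sprr1a- cells, 5 of 31 in Male-CCI and 12 of 35 in Female-CCI lay in the cluster of the Sprr1a+ cells, against 1 of 83 and 8 of 71 in sham. With only neurons of 0 Sprr1a UMIs these 4 calls were lost, at -0.079, -0.053, -0.53 and 0.11, and they were lost without Male-Sham too (0.40, 0.57, 0.71 and 0.43). The Tubb3 and Tuba1a calls were also lost without Female-CCI (0.42 each), that of Tuba1a without Female-Sham (adjusted p = 0.0613) and that of Tubb4a with DESeq2 (adjusted p = 0.095). Tuba1a was called in NF2-like neurons (0.50), at 2145 and 2351 CPM against 2872 and 3290.1 CPM, just past the threshold of size. This call was lost without Male-Sham (0.43, adjusted p = 0.126), without Female-CCI (0.39), at both other cluster resolutions (0.49) and without integration (0.45).

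The single pair called lower was Tuba4a in NP2-like neurons, at 2.98 and 2.83 CPM in sham and 1.27 and 1.97 CPM in CCI (-0.88, SE 0.27, adjusted p = 0.0326), where 1.88% of genes were called lower; DESeq2 did not call it (adjusted p = 0.287), and it was lost without Male-Sham (0.0796), Female-Sham (0.0554) or Male-CCI (0.285). In NP3-like, NF1-like and cLTMR-like neurons 0 members were called in either direction, where edgeR called 1.49%, 0.635% and 0.885% of all genes higher and 1.02%, 0.434% and 0.837% lower. Total tubulin in Sprr1a- neurons of a class moved from 0.973% ± 0.0281 to 1.15% ± 0.000425 of UMIs in NP2-like neurons and from 0.911% ± 0.00109 to 1.07% ± 0.0301 in PEP5-like neurons, while in NF1-like neurons it was 0.795% ± 0.0189 and 0.820% ± 0.0531 and in cLTMR-like neurons 1.07% ± 0.0642 and 1.13% ± 0.0477 (n = 2 each). Pairs called higher numbered 3 when only neurons with 0 Sprr1a UMIs entered, 8 without Male-Sham and 8 without Female-CCI.

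CCI-ind-like cells made up 36 of 42, 125 of 144, 976 of 1467 and 1168 of 1790 Sprr1a+ neurons. The levels of Sprr1a+ neurons given above are therefore largely their own. CCI-ind-like Sprr1a+ neurons, 36, 125, 976 and 1168 cells, held 2.05%, 1.96%, 2.11% and 2.09% of their UMIs as tubulin. The 28 and 47 Sprr1a- cells in the same clusters of the CCI libraries held 1.94% ± 0.171. Clustering had grouped these cells with Sprr1a+ neurons, so they cannot show whether Sprr1a and tubulin vary apart. An unnamed cluster led by Ly6a, with 128 and 218 Sprr1a+ cells in the CCI libraries, held 3.05% and 2.70%, and a cluster led by Rxfp1 held 0.807% to 0.958% in its Sprr1a- cells.

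The rare Tubb6 was seen, with at least 1 UMI, in 6.25%, 6.47%, 55.7% and 51.8% of neurons, and, with every cell thinned to 2000 UMIs, in 0.488%, 0.648%, 10.8% and 11.1%. SGC-like cells, thinned likewise, had Tubb6 in 1.05%, 1.33%, 4.62% and 2.70% of cells, at median depths of 4188.5 to 5175 UMIs before thinning against 32490.0 to 56457 UMIs in neurons. The exact 95% binomial intervals (Clopper-Pearson, counting error only) were 0.279% to 0.791% and 0.452% to 0.901% for sham neurons and 0.128% to 3.75% and 0.162% to 4.73% for sham SGC-like cells and overlapped, so at this depth the share over all sham neurons could not be told from that in SGC-like cells. The SGC-like cells are no empty reference for this gene, since their Tubb6 level in sham was 10.8 CPM. In CCI the intervals were 9.64% to 12.0% and 10.1% to 12.2% for neurons and 1.71% to 9.78% and 0.561% to 7.70% for SGC-like cells, which overlapped in Male-CCI and did not in Female-CCI.

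Genes that act on tubulin were compared in all neurons, for lists chosen by function. Of the other tubulin genes, 7 of 10 could be tested and 0 were called by edgeR in either direction (median log2 fold change -0.39, against -0.01 for all genes). Tubb4b, a widely expressed beta isotype, stood at 964, 1001, 869 and 847 CPM (-0.14, adjusted p = 0.046). Of 8 genes for tubulin folding 0 were called (median -0.02). Of 22 genes for tubulin-modifying enzymes 2 were called higher and 4 lower, where 15.2% and 12.7% of all genes were called in these directions: Vash2, a tubulin detyrosinase, went from 2.69 and 3.34 CPM to 10.7 and 10.8 CPM (1.89), and the tubulin glutamylases Ttll9 (-0.98) and Ttll6 (-0.93) were among those lower. Of 20 microtubule-associated proteins 3 were called higher, among them Dcx, which binds microtubules of young neurons, from 3.09 and 2.82 CPM to 7.28 and 6.69 CPM (1.30), and Map7d1 (0.77), and 2 were called lower, among them Map7d3 (-0.81). Of 22 severing and end-binding proteins Fign, a severing enzyme, was called higher (0.55) and Ckap5, a microtubule polymerase, lower (-0.61). In Sprr1a- neurons 0 genes of these 5 lists were called by edgeR.

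Between Sprr1a+ and Sprr1a- neurons of CCI, where 20.9% of all genes were called higher and 24.7% lower, calls in the lists were also counted. Tuba8 (-3.73) and Tubg2 (-0.81) were the 2 other tubulin genes called lower, and Tubb4b lay at -0.42 without a call. Modifying enzymes had 3 genes higher and 9 lower, associated proteins 5 higher and 3 lower, severing and end-binding proteins 1 higher and 5 lower, and folding factors 1 higher and 2 lower. No test compared these lists with the members.

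Genes whose pattern was most like that of a member were found by Pearson's r of log2(CPM + 5) over 50 sums of a class in a library (13 classes, 4 libraries), among 6163 genes. These points share libraries and cells, and r is a description. Tubb6 was most like Sema6a (r = 0.96), itself a marker used to name the CCI-ind clusters, Tubb3 like Rtn4 (0.93), Tubb2b like Tpm4 (0.95) and Tubb5 like Eif4a1 (0.95). Some members were most like one another: Tubb2a was nearest to Tubb5 (0.91) and Tuba1a to Tubb2b (0.92). Tubb4a was nearest to Cadm3 (0.89), Tuba1b to Creg1 (0.83) and Tuba1c to Mapk6 (0.90).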

How the data were processed

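GFP-sorted DRG cells of 4 libraries were sequenced with the 10x Genomics 3′ v3 kit. The deposited matrices hold UMI counts per gene and cell, which the authors made with Cell Ranger (2.1.1 in the submitters' processing notes, 3.0.2 in the matrix header) on mm10; no values were normalised. Cells with at least 1500 genes and at most 10% mitochondrial UMIs were kept. Scrublet in scanpy 1.11.5 scored doublets (expected rate 0.1); its own limit marked only 0 to 121 cells per library, so the highest-scoring cells were removed, as many as the study states it removed. Cells were integrated and clustered in Seurat 5.3.0 (3000 variable genes without 26 genes, the tubulins and Sprr1a; 20 components, resolution 0.8). Classes were named from marker lists. Counts were summed per library and tested with edgeR 4.0.16 (filterByExpr, TMM, robust quasi-likelihood fit, Benjamini-Hochberg adjustment), a gene being called at an adjusted p below 0.05 and a log2 fold change above 0.5 in size; SE is the fold change over the root of F. Groups came from the labels. Nothing states separate cultures or animals within a library, so p-values of CCI against sham measure the spread between libraries of 1 operation, which differ in sex. Between Sprr1a+ and Sprr1a- neurons they measure how far the differences within the 2 CCI libraries disagree, with 1 residual degree of freedom. The scripts were tested on simulated data. Named genes are the 10 members, the other tubulins, the 3 genes of each further list with the largest change among those called in the same direction in both sexes, and 3 genes most like each member. The members and lists were chosen with earlier results of these data known. Alternatives were DESeq2 1.42.0, other scalings, filters, clusterings and Sprr1a limits, and leaving out each library. The gene most like Tuba4a is not reported here.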

Additional observations from a re-analysis of the deposited data

Results flagged for a closer look

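Isotypes with opposite directions in 2 classes stand first; in each case both CCI libraries of 1 class lay on one side of sham and those of the other class on the opposite side, and the difference between classes was not tested. In CCI Sprr1a+ neurons against sham Sprr1a- neurons, Tubb4a was 2.60 higher on the log2 scale in NP1-like neurons, against a fitted -0.00 in NF1-like neurons and -0.32 in the NF2-like class, where its CPM was lower in both CCI libraries. Tuba4a was lower in NF1-like (-0.86) and NF2-like (-0.79) neurons against 0.20 in NP1-like neurons. In Sprr1a- neurons, CCI against sham, Tubb4a was 1.02 in NP1-like and -0.23 in NF1-like neurons. Tuba1c was 0.62 in PEP1-like, 0.67 in PEP2-like and 0.67 in PEP3/4-like neurons, against -0.37 in cLTMR-like neurons. Tuba4a was -0.88 in NP2-like neurons, against 0.49 in NP3-like, 0.23 in PEP1-like, 0.38 in PEP2-like, 0.15 in PEP3/4-like and 0.07 in PEP5-like neurons. In each of these contrasts of Sprr1a- neurons the called side lost its call with DESeq2. With 0 Sprr1a UMIs Tubb4a in NP1-like neurons turned to -0.53 and Tuba4a in PEP1-like neurons to -0.0055, and the Tuba1c calls were lost too.

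In SGC-like cells, whose CCI and sham libraries were not compared in the report, 6 isotypes stood higher in both CCI libraries than in both sham libraries, while total tubulin was 2786 CPM in CCI against 2772 CPM in sham. The means were 280 CPM against 179 CPM for Tubb3, 21.6 against 10.8 CPM for Tubb6, 113 against 68.6 CPM for Tubb2a, 108 against 58.8 CPM for Tubb2b, 475 against 321 CPM for Tubb5 and 9.83 against 6.60 CPM for Tuba4a. The sums came from 111 to 190 cells and 571458 to 1134069 UMIs per library, at median depths of 4188.5 to 5175 UMIs per cell. A list of 4 neuronal markers summed to 190.9 to 327.2 CPM in these cells, against 4762 to 5426 CPM in neurons. Other cell types left a mark as well: 6 immune markers summed to 260 to 2215 CPM, against 2.36 to 7.40 CPM in neurons. A list of 4 vascular and fibroblast markers summed to 108 to 210 CPM, against 0.937 to 1.69 CPM in neurons. The difference between operations and the part of neuronal, immune, vascular and fibroblast RNA in it were not tested.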

How the results depend on the processing

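Of 1027 member values recomputed under the alternatives, 964 were counted as unchanged. Of the rest, 42 lost a call with their sign kept, 5 gained one and 16 changed sign. Those of Tubb3, Tubb2a and Tubb4a in NP1-like neurons with 0 Sprr1a UMIs changed sign and lost a call. Between Sprr1a+ and Sprr1a- neurons, values without 1 library had no test. They were counted as unchanged unless a called member changed sign. In all neurons 6 members were higher under every alternative tried, and in Sprr1a+ against Sprr1a- neurons Tubb5 was the only member to lose its call, under library totals. With sex as a replicate block, 6 members were higher in all neurons, 2 in Sprr1a- neurons and 30 and 18 pairs were higher in the 2 comparisons by class; without the library block, 7 members were higher and 1 lower between states. The male-library deviations of both operations correlated over genes (r = 0.56), but the shared number marks sex and there are only 2 pairs. Of members higher in Sprr1a- neurons, 1 was left when only neurons with 0 Sprr1a UMIs entered. All genes called there, 735, numbered 325 to 704 without 1 library (427 without Male-Sham, 484 without Female-Sham, 325 without Female-CCI). Pairs of a member and a class higher in Sprr1a- neurons, 14, numbered 3 with 0 Sprr1a UMIs and 8 to 18 without 1 library, and the 1 pair lower numbered 0 with DESeq2 and 0 to 1 without 1 library. The rise in total tubulin of 0.637 percentage points after CCI was 0.581 as a mean of per-cell shares, and the difference of 0.993 between Sprr1a+ and Sprr1a- neurons was 0.921 with doublets kept and 0.954 as a mean of per-cell shares.

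Signs changed mostly in values near 0. In all neurons Tubb4a ran from -0.15 to 0.079 without 1 library. In Sprr1a- neurons Tubb4a ran from -0.14 to 0.042, Tuba1b from -0.10 to 0.050, with 0.0038 under library totals and 0.0014 with doublets kept, and Tubb2a was -0.00045 with 0 Sprr1a UMIs. Between Sprr1a+ and Sprr1a- neurons Tubb4a was -0.15 under library totals and -0.026 in named classes only. In NF1-like neurons Tubb4a was 0.028 with DESeq2 and -0.11 to 0.11 without 1 library. With 0 Sprr1a UMIs, Sprr1a- NP1-like neurons gave -0.079 for Tubb3, -0.053 for Tubb2a and -0.53 for Tubb4a, and PEP1-like neurons gave -0.0055 for Tuba4a; the cause was not tested. Without integration the PEP5-like, NF1-like and NF2-like Sprr1a+ neurons had too few cells in a library for a fit, and so had NF2-like neurons with 0 Sprr1a UMIs. With 2 libraries per operation, and with fits without 1 library assuming that the lone library varies like the others, sex, litter and operation could not be examined apart.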
